A study of Mus musculus with 4 samples.

Results

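The genes described are 10 components of TGF-beta and SMAD signalling: the ligand gene Tgfb1, its docking receptor Lrrc32 (GARP), the convertase Furin, the receptors Tgfbr1 and Tgfbr2, the signal transducers Smad2, Smad3, Smad4 and Smad7, and the corepressor Ski. They were chosen by gene symbol from the 52636 genes in the count files, and all 10 were found by their Ensembl identifiers. Their RNA was measured by sequencing in regulatory T cells sorted, by surface markers that include CD4 and bright CD25, from C57BL/6 mice of 7 weeks. One group carried the genotype label Vav1R63W Themis1-T-/-, a knock-in allele of the signalling protein Vav1 with loss of Themis1 in T cells, and the other carried Vav1R63W alone, so the Vav1 allele was shared by both groups. Each group held 2 libraries, numbered replicates 2 and 3 in their titles. The labels name neither the Cre driver nor the deleted exons of Themis, and they do not say whether the libraries came from separate or pooled mice, so a p-value covers library-to-library spread, which may be technical.

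TGF-beta 1 is made as a latent precursor that furin cleaves and that GARP holds on the surface of regulatory T cells until integrins release the active ligand. The ligand binds the type II receptor, which phosphorylates the type I receptor, and the type I receptor phosphorylates SMAD2 and SMAD3. These pair with SMAD4 and enter the nucleus, where SKI and its relatives repress their targets, while SMAD7 blocks the type I receptor. In T cells the pathway promotes the induction of Foxp3 and restrains effector differentiation.

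Reads assigned to genes numbered 15953194 and 13963670 in libraries labelled Themis1-deleted, and 14003757 and 14398002 in the Vav1R63W libraries. Themis, the targeted gene, had 685 reads in the library labelled Themis1-deleted, replicate 2, and 0 in replicate 3, against 283 and 97 reads in the Vav1R63W libraries. The label of that replicate 2 is therefore not borne out by gene-level counts, which do not show single exons, and every direction below is between labels. Both labelled groups expressed the regulatory T cell genes: Foxp3 was at 1014 and 737 CPM (counts per 1e6 reads assigned to genes in that library) in libraries labelled Themis1-deleted, and at 904 and 636 CPM in the Vav1R63W libraries. Il2ra was at 223 and 325 CPM in libraries labelled Themis1-deleted, and at 310.0 and 274 CPM in the Vav1R63W libraries. Many genes were seen in one library of a group and nearly missing from its partner. Of the genes with at least 100 reads in one library, 15.5% had at most 3 reads in the other library labelled Themis1-deleted, and 9.80% in the other Vav1R63W library. Themis was itself such a gene under the Themis1-deleted label, so its 0 reads in replicate 3 do not alone bear out that label.

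Among the 10 genes, the ligand, its docking receptor and the type II receptor were lower and the type I receptor was higher in both libraries labelled Themis1-deleted than in both Vav1R63W libraries. None of these differences passed the test. In such bulk samples, fewer cells of a type and less RNA per cell cannot be told apart. Of the 9 genes with enough reads to be tested, the edgeR quasi-likelihood test called 0 at an adjusted p under 0.05, where it called 0% of all 10216 genes tested. DESeq2 also called 0 of these genes, where it called 1.88% of all genes with an adjusted p. With limma-voom 0 of them were called, and 0 of all tested genes. At an unadjusted p under 0.05 stood 1 of the 9, Tgfbr2, where 4.98% of all tested genes did. The groups did not overlap for 4 of the 9 (44.4%), against 33.8% of all tested genes. Of the 9 log2 fold changes 3 were positive and 6 negative, and their median was -0.12, beside a median of 0.00 over all tested genes.

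**Figure D1:**
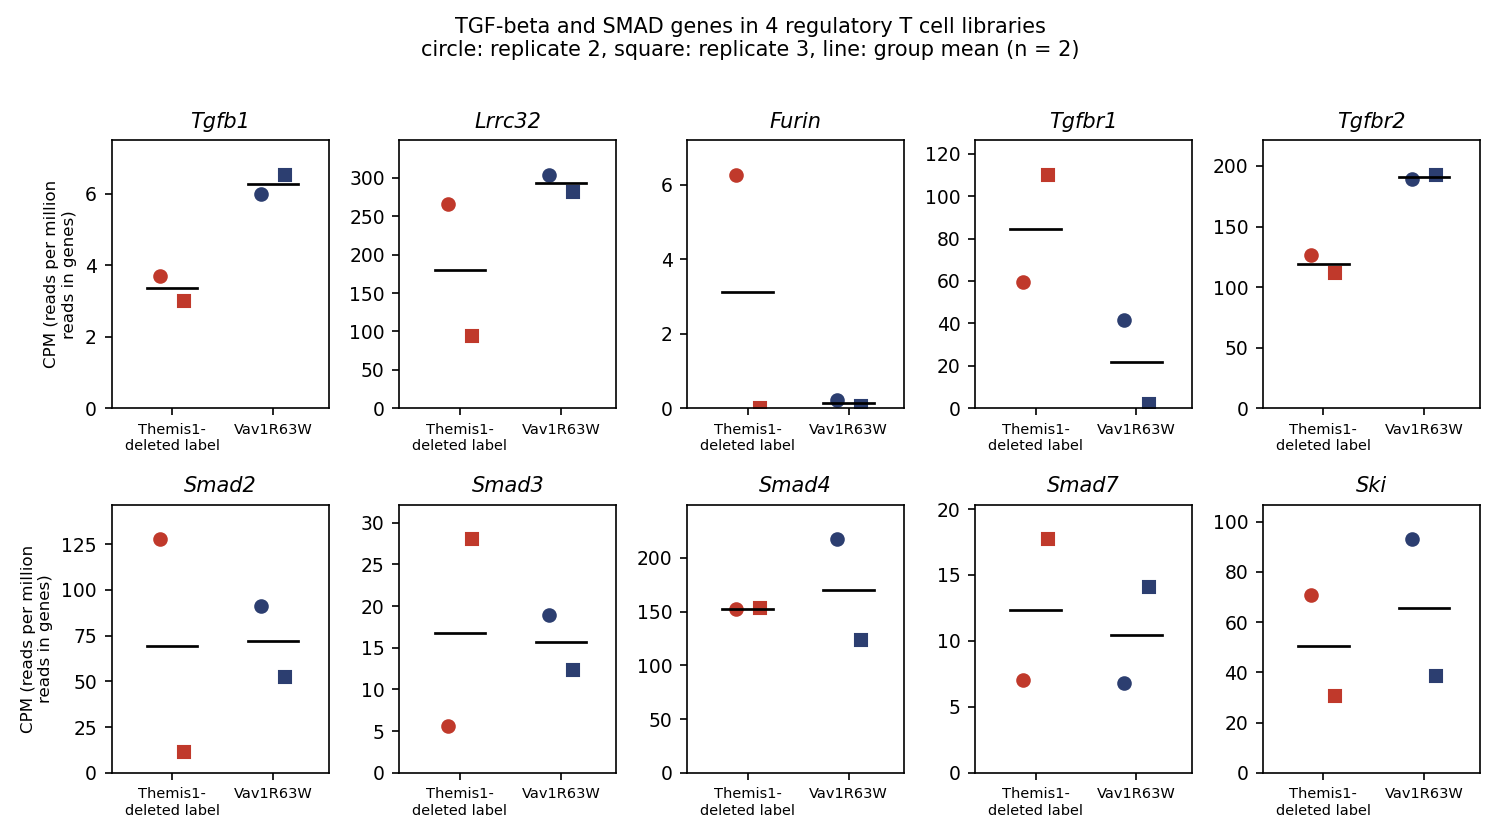
Level of each of the 10 genes in CPM (vertical axes, each starting at 0) in both libraries labelled Themis1-deleted (left, red) and the Vav1R63W libraries (right, blue), with circles for replicate 2, squares for replicate 3 and a line at the mean of 2 libraries. Tgfbr2 and Tgfb1 were lower in both libraries labelled Themis1-deleted with little spread inside either group, whereas Smad2, Smad3, Smad7 and Ski varied more inside a group than between group means.

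The sequence just upstream of the transcription start is shown for the type II and type I receptor genes, because the groups lay apart in opposite directions for them. Each is 250 bases, 5′ to 3′, from RefSeq on GRCm38.p6; Tgfbr2 is at chr9:116175364-116175613 on the minus strand and Tgfbr1, at the first of its RefSeq starts, at chr4:47352972-47353221 on the plus strand. Capitals mark the SMAD box CAGAC or its complement GTCTG, and the GC box GGGCGG or its complement CCGCCC.
Tgfbr2: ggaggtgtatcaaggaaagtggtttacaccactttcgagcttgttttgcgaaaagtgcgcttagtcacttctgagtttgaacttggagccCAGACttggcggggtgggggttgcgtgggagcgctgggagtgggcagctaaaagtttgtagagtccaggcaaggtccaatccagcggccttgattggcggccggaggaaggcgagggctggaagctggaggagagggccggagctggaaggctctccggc
Tgfbr1: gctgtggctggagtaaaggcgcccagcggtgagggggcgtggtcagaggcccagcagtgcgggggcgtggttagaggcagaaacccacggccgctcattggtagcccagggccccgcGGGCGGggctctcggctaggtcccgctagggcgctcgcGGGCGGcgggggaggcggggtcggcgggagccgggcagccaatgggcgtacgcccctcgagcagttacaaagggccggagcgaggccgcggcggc
The Tgfbr2 window held 1 SMAD box and no GC box, and the Tgfbr1 window held 2 GC boxes and no SMAD box. The window of the second RefSeq start of Tgfbr1 held 1 SMAD box and no GC box, as that of Tgfbr2 did, so the motifs do not set the receptor genes apart at every start. Across all 32851 RefSeq promoter windows of this length, 42.2% held a SMAD box and 32.7% a GC box on either strand. The GC content was 58.4% for Tgfbr2, and 74.8% and 52.8% for the first and second start of Tgfbr1. Promoter entries were found for 6 of the 10 genes (Tgfb1, Furin, Tgfbr1, Tgfbr2, Smad3 and Ski).

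Tgfb1 (ENSMUSG00000002603, GRCm38 chromosome 7, 25687002 to 25705077, plus strand) encodes the ligand. It had 59 and 42 reads in libraries labelled Themis1-deleted (replicate 2 first, here and below), or 3.70 and 3.01 CPM, against 84 and 94 reads in the Vav1R63W libraries, or 6.00 and 6.53 CPM. Both libraries labelled Themis1-deleted were below both Vav1R63W libraries, on few reads in all 4. The log2 fold change was -0.88 ± 1.50 (SE, n = 2 each, edgeR adjusted p = 1.000). In both replicate 2 libraries the strand columns, which count each strand by itself, summed to more reads than the unstranded column. In both replicate 3 libraries the sum equalled it. No gene overlaps the exons of Tgfb1 in GENCODE M21, so the annotation used here does not account for the added reads. The sums were 84 and 42 reads in libraries labelled Themis1-deleted, and 94 and 94 in the Vav1R63W libraries, and the log2 fold change was then -0.65.

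Lrrc32 (ENSMUSG00000090958, chromosome 7, 98489283 to 98502181, plus strand) encodes GARP, which tethers latent TGF-beta 1 on regulatory T cells. It was at 266 and 94.6 CPM in libraries labelled Themis1-deleted, against 304 and 282 CPM in the Vav1R63W libraries. The Vav1R63W libraries were close to each other, and replicate 2 labelled Themis1-deleted was just below them while replicate 3 stood far lower. edgeR gave a log2 fold change of -0.68 ± 0.52 (SE, n = 2 each, adjusted p = 1.000), and it became -1.58 when replicate 2 labelled Themis1-deleted was left out and -0.14 when replicate 3 was. Lrrc32 is also a gene of platelets. Of 6 platelet and megakaryocyte markers, Pf4, Ppbp, Gp1ba and Treml1 had no read in any library, and the summed list was at 0 and 28.8 CPM in libraries labelled Themis1-deleted, and at 2.07 and 0.0695 CPM in the Vav1R63W libraries. The list was highest where Lrrc32 was lowest, and its part in the Lrrc32 values was not tested.

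Furin (ENSMUSG00000030530, chromosome 7, 80388585 to 80405436, minus strand) encodes the protease that cleaves the TGF-beta 1 precursor. It had 100 and 0 reads in libraries labelled Themis1-deleted, against 3 and 1 in the Vav1R63W libraries, and too few for the test. A single library held nearly all of its reads, and the groups overlapped. Its 0 reads in the library labelled Themis1-deleted, replicate 3, allow up to 0.215 CPM in the unstranded count, for counting error only. This is no limit on Furin itself, since the strand columns of that library summed to 22 reads (1.43 CPM). An antisense gene, Gm44851, covers 1.29% of its exon bases in GENCODE M21. With the strand columns summed, Furin had 100 and 22 reads in libraries labelled Themis1-deleted, and 38 and 1 in the Vav1R63W libraries, and the log2 fold change was 1.53 ± 2.09 (SE, n = 2 each, edgeR adjusted p = 1.000).

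Tgfbr2 (ENSMUSG00000032440, chromosome 9, 116084293 to 116175360, minus strand) encodes the ligand-binding type II receptor kinase. It was at 126 and 112 CPM in libraries labelled Themis1-deleted, against 189 and 193 CPM in the Vav1R63W libraries. The libraries of each group were close together and the groups did not overlap, as for 18.7% of all tested genes in this direction. Tgfbr2 averaged 119 ± 10.3 CPM in libraries labelled Themis1-deleted and 191 ± 2.48 CPM in the Vav1R63W libraries (SD, n = 2 each). The log2 fold change was -0.66 ± 0.22 (SE, n = 2 each), which did not pass the test over all genes (edgeR unadjusted p = 0.036, adjusted p = 0.927). It stayed between -0.73 and -0.60 when each library was left out in turn. As the groups did not overlap, its direction could hardly turn without any library, the one labelled Themis1-deleted with Themis reads included. In the authors' deposited table Tgfbr2 had a log2 fold change of -0.61 and an adjusted p of 0.0653. That was the smallest adjusted p of the 10 genes there, and 0 of the 8 with an adjusted p were called, where 1.56% of all genes with one were.

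Tgfbr1 (ENSMUSG00000007613, chromosome 4, 47353222 to 47414931, plus strand) encodes the type I receptor kinase that phosphorylates SMAD2 and SMAD3. It was at 59.4 and 109.9 CPM in libraries labelled Themis1-deleted, against 41.7 and 1.94 CPM in the Vav1R63W libraries. Both libraries labelled Themis1-deleted were above both Vav1R63W libraries, as for 15.1% of all tested genes in this direction, but Vav1R63W replicate 3 held only 28 reads where replicate 2 held 584. edgeR gave a log2 fold change of 2.01 ± 1.45 (SE, n = 2 each, adjusted p = 1.000). Leaving out Vav1R63W replicate 3 brought it to 1.08, and leaving out Vav1R63W replicate 2 to 5.44. Per kilobase of merged exons, the level of Tgfbr2 was 1.70 and 0.811 times that of Tgfbr1 in libraries labelled Themis1-deleted, and 3.62 and 79.0 times in the Vav1R63W libraries. The ratio was lower in both libraries labelled Themis1-deleted, and its highest value came from the library with few Tgfbr1 reads.

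**Figure D2:**
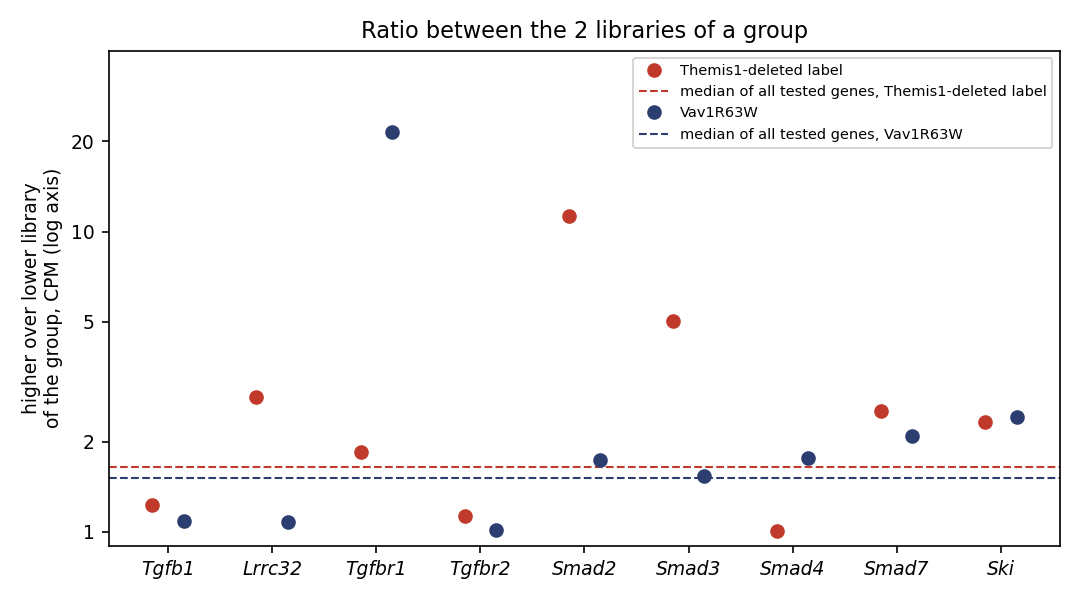
Ratio of the higher to the lower library within each group (vertical log axis, CPM over CPM) for the 9 tested genes, in red for the libraries labelled Themis1-deleted and in blue for the Vav1R63W libraries, with dashed lines at the medians of all tested genes (1.65 and 1.51). Tgfb1 and Tgfbr2 lie under both lines, whereas Tgfbr1 reaches 21.4 in the Vav1R63W group and Smad2 reaches 11.3 in the group labelled Themis1-deleted.

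The receptor-regulated SMADs varied between libraries of the same group. Smad2 (ENSMUSG00000024563, chromosome 18, 76241580 to 76310963, plus strand) was at 128 and 11.3 CPM in libraries labelled Themis1-deleted, against 91.3 and 52.6 CPM in the Vav1R63W libraries. The libraries labelled Themis1-deleted lay on either side of the Vav1R63W libraries and differed 11.3-fold from each other. The log2 fold change was -0.04 ± 1.16 (SE, n = 2 each, edgeR adjusted p = 1.000), and it turned to 0.83 when replicate 3 labelled Themis1-deleted was left out and to 0.37 without Vav1R63W replicate 2.

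Smad3 (ENSMUSG00000032402, chromosome 9, 63646767 to 63757994, minus strand), the closest relative of Smad2, was at 5.58 and 28.0 CPM in libraries labelled Themis1-deleted, against 19.0 and 12.4 CPM in the Vav1R63W libraries. Again both libraries labelled Themis1-deleted enclosed the others, here with replicate 3 as the higher one. edgeR gave a log2 fold change of 0.15 ± 1.28 (SE, n = 2 each, adjusted p = 1.000), and it turned to -1.49 when replicate 3 labelled Themis1-deleted was left out and to -0.11 without Vav1R63W replicate 3. The level of Smad2 per kilobase was 14.4 and 0.255 times that of Smad3 in libraries labelled Themis1-deleted, and 3.03 and 2.68 times in the Vav1R63W libraries. Which of the pair was more abundant thus differed between the libraries labelled Themis1-deleted, while both Vav1R63W libraries held more Smad2.

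Smad4 (ENSMUSG00000024515, chromosome 18, 73639009 to 73703780, minus strand), the shared partner of SMAD2 and SMAD3, was at 152 and 154 CPM in libraries labelled Themis1-deleted, against 217 and 123 CPM in the Vav1R63W libraries. The libraries labelled Themis1-deleted were nearly equal and fell between the Vav1R63W libraries. The log2 fold change was -0.12 ± 0.34 (SE, n = 2 each, edgeR adjusted p = 1.000), and 0.31 without Vav1R63W replicate 2. Smad4 was the most abundant of the SMAD genes per kilobase in all 4 libraries.

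Smad7 (ENSMUSG00000025880, chromosome 18, 75367529 to 75395935, plus strand), the inhibitory SMAD that the pathway itself induces, was at 7.02 and 17.7 CPM in libraries labelled Themis1-deleted, against 6.78 and 14.1 CPM in the Vav1R63W libraries. The values split by replicate number and not by label, replicate 3 being higher in both groups. edgeR gave a log2 fold change of 0.27 ± 1.39 (SE, n = 2 each, adjusted p = 1.000). It turned to -0.58 when replicate 3 labelled Themis1-deleted was left out and to -0.18 without Vav1R63W replicate 2.

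Ski (ENSMUSG00000029050, chromosome 4, 155154075 to 155222592, minus strand), which binds SMAD complexes and recruits corepressors, was at 70.9 and 30.4 CPM in libraries labelled Themis1-deleted, against 92.9 and 38.5 CPM in the Vav1R63W libraries. Here replicate 2 was higher than replicate 3 in both groups, and the groups overlapped. The log2 fold change was -0.35 ± 0.69 (SE, n = 2 each, edgeR adjusted p = 1.000). It turned to 0.11 when replicate 3 labelled Themis1-deleted was left out and to 0.38 without Vav1R63W replicate 2.

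Set on one scale, CPM per kilobase of merged exons, the mean over 4 libraries ran from Lrrc32 at 50.5 through Smad4 at 43.5, Tgfbr2 at 18.9, Ski at 10.5, Tgfbr1 at 8.15, Smad2 at 8.05, Smad3 at 2.93, Smad7 at 2.52 and Tgfb1 at 0.954 to Furin at 0.178. Neighbours in this order overlapped in their library values, except that Smad4 stood above Tgfbr2 and Smad7 above Tgfb1 in every library value. The docking receptor was far above the ligand it holds: Lrrc32 was 77.4 and 33.8 times Tgfb1 per kilobase in libraries labelled Themis1-deleted, and 54.5 and 46.4 times in the Vav1R63W libraries. The ranges of this ratio overlapped between groups.

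A further 70 genes of the pathway were examined by role. Of these 18 had no read in any library, 8 had reads but too few for the test, and 44 were tested. edgeR called 0 of the 44 in either direction, with 2 at an unadjusted p under 0.05 (Skil and Tab2), and limma-voom called 0. Their log2 fold changes were positive for 23 and negative for 21, with a median of 0.05. The groups did not overlap for 18 of the 44 (40.9%, beside 33.8% of all tested genes), 8 with the higher and 10 with the lower values under the Themis1-deleted label, and this count includes genes that passed the filter only through the group where they were high. DESeq2, which fitted the 52 of the 70 with reads, called 2, Pcsk6 and Tab2. It called 1.88% of all genes with an adjusted p, and how many of the 52 had one was not counted. The authors' deposited table called 1 higher, Skil, and 1 lower, Tab2, of the 37 with an adjusted p, where 0.737% of all genes were called higher and 0.826% lower.

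**Figure D3:**
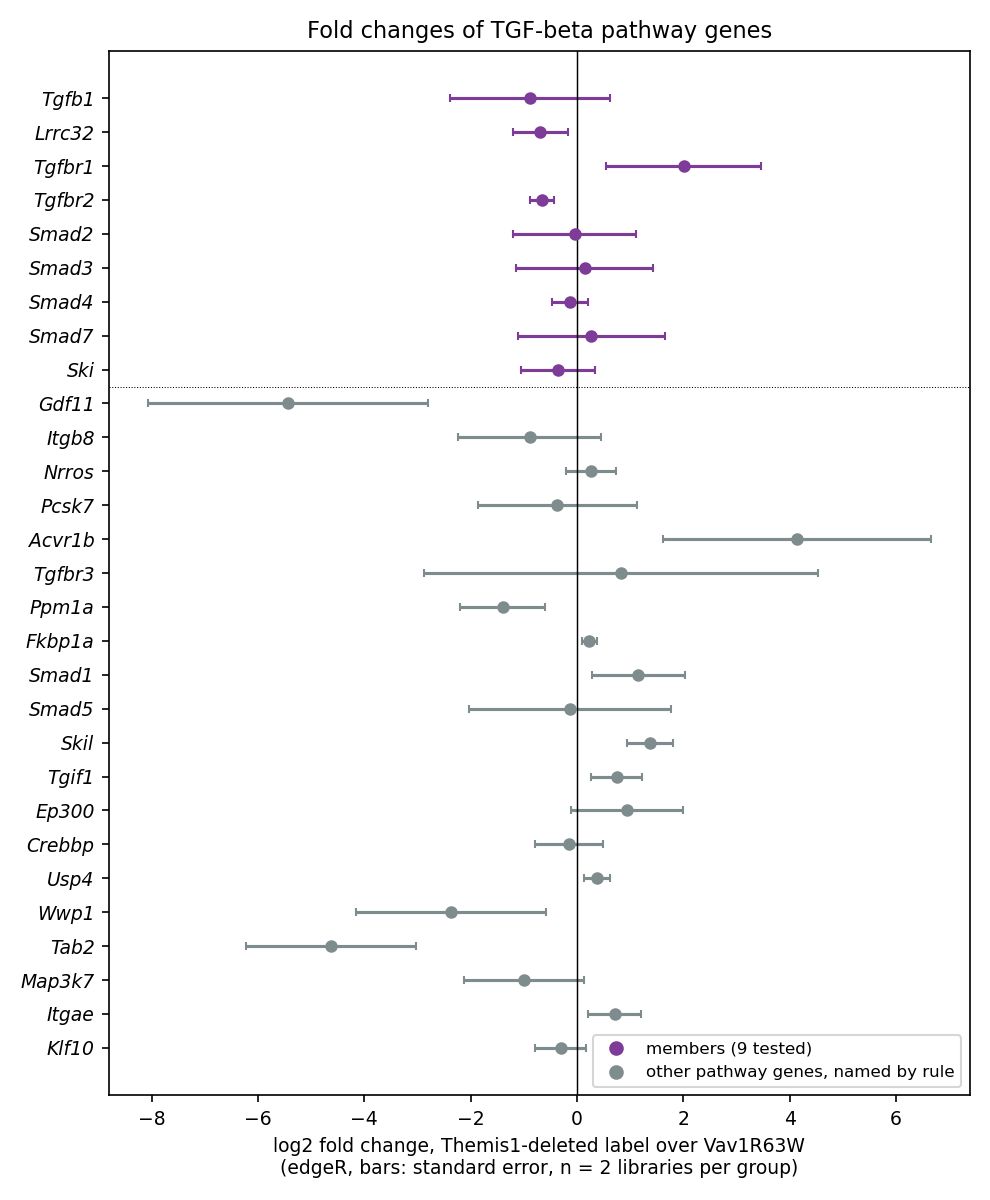
Log2 fold change of the libraries labelled Themis1-deleted over Vav1R63W (horizontal axis) for the 9 tested genes (purple, above the dotted line) and the other pathway genes named by rule (grey), with bars for the standard error from edgeR on 2 libraries per group. The bars of Tgfbr2 and Skil do not reach 0, nor do those of several other genes, Lrrc32, Tgfbr1, Fkbp1a and Tab2 among them. Those of Tgfb1, Smad2, Smad3 and Smad7 cross it, and no gene shown passed the edgeR test.

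All 5 of the other corepressor genes had reads and 4 of them were tested. Skil, which encodes the SKI-like protein SnoN and is itself induced by TGF-beta, was at 186 and 155 CPM in libraries labelled Themis1-deleted, against 90.4 and 44.0 CPM in the Vav1R63W libraries. Its log2 fold change was 1.37 ± 0.43 (SE, n = 2 each, edgeR unadjusted p = 0.031, adjusted p = 0.902) and ranged from 0.96 to 1.95 when each library was left out. The authors' deposited table gave Skil a log2 fold change of 1.07 and an adjusted p of 0.0418, while DESeq2 run here gave an adjusted p of 0.230. Tgif1, a homeodomain corepressor of SMAD2 and SMAD3, was at 62.6 and 54.7 CPM in libraries labelled Themis1-deleted, against 40.1 and 31.0 CPM in the Vav1R63W libraries. edgeR gave a log2 fold change of 0.75 ± 0.48 (SE, n = 2 each, adjusted p = 1.000). Both genes were higher in both libraries labelled Themis1-deleted, as were 15.1% of all tested genes, whereas the groups overlapped for Ski. Whether Ski and these genes differed from each other in that was not tested. The remaining tested pair were scaffold genes of repressor complexes, named to complete the role. Ncor1 was at 123 and 191 CPM in libraries labelled Themis1-deleted, against 111 and 151 CPM in the Vav1R63W libraries, with overlap. Sin3a was at 6.77 and 0.0716 CPM in libraries labelled Themis1-deleted, against 25.4 and 8.20 CPM in the Vav1R63W libraries, so it was lower in both, on a single read in replicate 3 labelled Themis1-deleted.

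**Figure D4:**
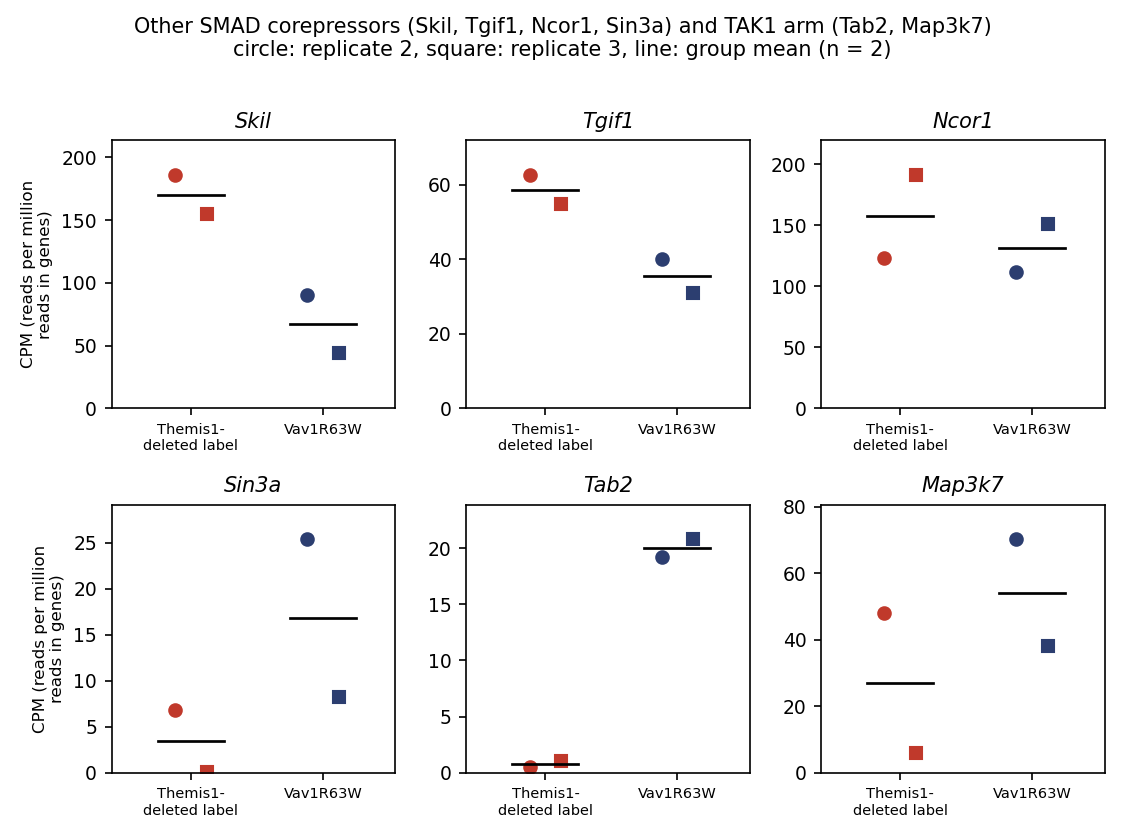
Level in CPM (vertical axes, each starting at 0) of 4 further corepressors and 2 genes of the TAK1 arm in both libraries labelled Themis1-deleted (left, red) and the Vav1R63W libraries (right, blue), with circles for replicate 2, squares for replicate 3 and a line at the mean of 2 libraries. Skil and Tgif1 were higher and Tab2 and Sin3a lower in both libraries labelled Themis1-deleted, while Ncor1 and Map3k7 overlapped.

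In the SMAD-independent arm, where TAK1 (gene Map3k7) acts with its adaptors, Tab2 had 8 and 15 reads in libraries labelled Themis1-deleted, against 269 and 299 in the Vav1R63W libraries. Its log2 fold change was -4.62 ± 1.60 (SE, n = 2 each, edgeR unadjusted p = 0.040, adjusted p = 0.958), and DESeq2 gave an adjusted p of 0.0216. The authors' deposited table gave Tab2 a log2 fold change of -1.18 and an adjusted p of 0.0496. DESeq2 run here gave a log2 fold change of -4.63. The deposited value was smaller in size for Tgfbr1 too (0.59, against 2.02 with DESeq2 run here). Sizes from these sources are therefore not compared, and the cause was not tested. Map3k7 was at 47.9 and 5.87 CPM in libraries labelled Themis1-deleted, against 70.1 and 38.1 CPM in the Vav1R63W libraries, and these overlapped.

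Among ligands, Tgfb2, Tgfb3, Inhba, Inhbb and Gdf15 had no read in any library, so Tgfb1 and Gdf11 were the only 2 of the 7 ligand genes examined with reads. Gdf11, a ligand of activin receptors, had 8 and 0 reads in libraries labelled Themis1-deleted, against 116 and 204 in the Vav1R63W libraries (edgeR adjusted p = 1.000). Of the genes of latency and activation, Itgb8, the integrin chain that releases TGF-beta 1 on regulatory T cells, was at 7.71 and 6.23 CPM in libraries labelled Themis1-deleted, against 13.4 and 12.8 CPM in the Vav1R63W libraries. edgeR gave a log2 fold change of -0.89 ± 1.35 (SE, n = 2 each, adjusted p = 1.000). Like Tgfb1 and Lrrc32, Itgb8 was lower in both libraries labelled Themis1-deleted, as were 18.7% of all tested genes. None of the 3 passed the test. The groups overlapped for every other tested gene of latency and activation. Nrros, a relative of Lrrc32 that holds latent TGF-beta 1 on myeloid cells, was at 145 and 276 CPM in libraries labelled Themis1-deleted, against 233 and 126 CPM in the Vav1R63W libraries, with overlap.

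Other convertases were seen in part. Pcsk7, a relative of furin, was at 2.19 and 39.2 CPM in libraries labelled Themis1-deleted, against 35.4 and 20.1 CPM in the Vav1R63W libraries, with overlap. Pcsk6 had 418 reads in the library labelled Themis1-deleted, replicate 3, and 0 in the other 3 libraries, so the DESeq2 call rests on 1 library. Of other receptors, the activin type I receptor gene Acvr1b had 113 and 75 reads in libraries labelled Themis1-deleted, against 10 and 0 in the Vav1R63W libraries (edgeR adjusted p = 1.000). Tgfbr3, the coreceptor betaglycan, had 318 and 0 reads in libraries labelled Themis1-deleted, against 0 and 159 in the Vav1R63W libraries, each group being split.

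Among regulators of the receptors and SMADs, Ppm1a, a phosphatase described for SMAD2 and SMAD3, was at 14.4 and 12.7 CPM in libraries labelled Themis1-deleted, against 26.6 and 45.8 CPM in the Vav1R63W libraries. Its log2 fold change was -1.40 ± 0.81 (SE, n = 2 each, edgeR adjusted p = 1.000). Fkbp1a, the type I receptor guard FKBP12, was at 465 and 490.3 CPM in libraries labelled Themis1-deleted, against 443 and 385 CPM in the Vav1R63W libraries, a log2 fold change of 0.23 ± 0.15 (SE, n = 2 each, edgeR adjusted p = 1.000). For both genes the groups did not overlap, as for 33.8% of all tested genes, and neither passed the test. Smad1, a transducer of BMP signals, was at 25.2 and 69.5 CPM in libraries labelled Themis1-deleted, against 13.6 and 29.7 CPM in the Vav1R63W libraries, with overlap. Smad5, its relative, was at 14.8 and 0.931 CPM in libraries labelled Themis1-deleted, against 4.999 and 12.2 CPM in the Vav1R63W libraries, again with overlap. Neither passed the test.

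The coactivator genes did not separate by label: Ep300 was at 11.8 and 42.5 CPM in libraries labelled Themis1-deleted, against 15.6 and 13.5 CPM in the Vav1R63W libraries, and Crebbp at 25.1 and 34.8 CPM in libraries labelled Themis1-deleted, against 38.3 and 29.5 CPM in the Vav1R63W libraries. All 10 ubiquitin ligases and deubiquitinases were tested and 0 were called by edgeR. Usp4, a deubiquitinase of the type I receptor, was at 323 and 226 CPM in libraries labelled Themis1-deleted, against 199.7 and 228 CPM in the Vav1R63W libraries. Wwp1, a HECT ligase, was at 2.32 and 1.07 CPM in libraries labelled Themis1-deleted, against 3.07 and 14.7 CPM in the Vav1R63W libraries.

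Of 9 transcriptional targets of the pathway, 4 were tested and 0 called by edgeR, while Id1 and Tgfbi were among those with no read. Itgae, which encodes the integrin chain CD103 and is induced by TGF-beta in T cells, was at 73.1 and 118 CPM in libraries labelled Themis1-deleted, against 77.6 and 41.95 CPM in the Vav1R63W libraries. edgeR gave a log2 fold change of 0.71 ± 0.50 (SE, n = 2 each, adjusted p = 1.000). Klf10, an early TGF-beta response gene, was at 70.6 and 36.9 CPM in libraries labelled Themis1-deleted, against 63.8 and 70.7 CPM in the Vav1R63W libraries. Both genes overlapped between groups.

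Among other regulatory T cell genes, the inhibitory receptor gene Ctla4 was at 112 and 93.0 CPM in libraries labelled Themis1-deleted, against 173 and 160 CPM in the Vav1R63W libraries. The transcription factor gene Ikzf2 (Helios) was at 183 and 162 CPM in libraries labelled Themis1-deleted, against 150 and 117 CPM in the Vav1R63W libraries. Ctla4 was thus lower and Ikzf2 higher in each library labelled Themis1-deleted than in both others, as were 18.7% and 15.1% of all tested genes. The groups overlapped for Foxp3, Il2ra, Tnfrsf18, Cd4 and Cd3e. Vav1, whose allele both groups share, was at 160.5 and 73.5 CPM in libraries labelled Themis1-deleted, against 206 and 253 CPM in the Vav1R63W libraries. Several defining markers of other cells were at 0 in all 4 libraries: Ms4a1 and Pax5 of B cells, all 6 for monocytes and macrophages, Itgax, Flt3, Xcr1, Clec9a and Siglech of dendritic cells, Cd8a, Ncr1 and Klrb1c of cytotoxic cells, Hbb-bt and Alas2 of erythroid cells, and Col1a1, Col3a1, Cdh5 and Dcn of stromal and endothelial cells. These zeros are of the unstranded count; the monocyte gene Csf1r had reads once the strand columns were summed. Summed B cell markers, led by Ighm and Cd79b, were at 1312 and 1370.2 CPM in libraries labelled Themis1-deleted, and at 1179 and 1303 CPM in the Vav1R63W libraries. Ighm made up most of that sum, at 1274 and 1307 CPM in libraries labelled Themis1-deleted, against 1111 and 1234 CPM in the Vav1R63W libraries. Cd79a had 38 and 0 reads in libraries labelled Themis1-deleted, against 135 and 77 in the Vav1R63W libraries. Ighm was thus higher and Cd79a lower without overlap, as were 15.1% and 18.7% of all tested genes. The groups overlapped for Cd79b. Among cytotoxic cell genes, Nkg7 was at 122 and 159.7 CPM in libraries labelled Themis1-deleted, and at 119 and 154 CPM in the Vav1R63W libraries. Cd8b1 was at 30.3 and 19.3 CPM in libraries labelled Themis1-deleted, and at 26.1 and 38.5 CPM in the Vav1R63W libraries. Prf1 had 581 and 1 reads in libraries labelled Themis1-deleted, against 210 and 354 in the Vav1R63W libraries. Klrd1 had 182 reads in Vav1R63W replicate 3 and at most 1 elsewhere. The groups overlapped for all 4 of these genes. The endothelial and leukocyte gene Pecam1 was at 84.3 and 70.8 CPM in libraries labelled Themis1-deleted, against 43.4 and 55.1 CPM in the Vav1R63W libraries, so it was higher in both. The globin genes Hba-a1 and Hbb-bs stayed at or under 5.64 CPM in every library, and Zbtb46 of dendritic cells was at 14.1 and 0 CPM in libraries labelled Themis1-deleted, and at 2.50 and 0 CPM in the Vav1R63W libraries. The part of these other-cell genes in the results above was not tested.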

How the data were processed

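The data are 4 RNA libraries of sorted regulatory T cells, 2 per genotype label. Trim Galore, FastQC, MultiQC and STAR handled the reads, per the submitters' processing notes; these name the build mm9 while the series' design text names Ensembl release 90, and versions are not given in the sources used here. The deposited files hold raw read counts per gene, without strand and for each strand. The authors' deposited table adds p-values from DESeq2 with the fold change as a linear ratio and as log2, per the file headers and design text; its 4 columns of per-sample normalized values were not used. The unstranded count was used, since it equals the series table for all 52636 genes. Summary lines held 21.1% to 23.1% of reads and were left out. The named kit is not stated to keep strand, so overlapping genes cannot be told apart. Symbols and GRCm38 positions come from GENCODE M21 by gene ID.

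Levels are CPM of the library total. The comparison was fitted over all genes with edgeR 4.0.16 (R 4.3.3), TMM, filterByExpr (minimum count 10, minimum total 15) and the robust quasi-likelihood F test, two-sided, Benjamini-Hochberg adjusted; standard errors are the log2 fold change over the square root of F. The code was tested on simulated data. Alternatives were DESeq2 1.42.0, limma-voom (limma 3.58.1), other scalings and filters, summed strand columns, a replicate block and leaving out each library. The members and lists were chosen with earlier results of these data known. The text names all 10 genes, of the other pathway genes those called and the 2 with the smallest p in each role, Themis, Vav1, and markers; Pcsk6, Ncor1 and Sin3a were named after their values were seen. Some genes of the lists are not reported here. With 2 libraries a group an exact permutation test cannot go below p = 0.333, so none is given. A depth of 13963670 to 15953194 reads in genes per library limits counting error only.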

Additional observations from a re-analysis of the deposited data

How the results depend on the processing

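Among all genes, edgeR called 0 under each scaling, filter, count column, the replicate block and with each library left out (0 to 0), and limma-voom called 0, while DESeq2 called 206, 85 higher and 121 lower. Of the 10 genes 0 were called under any of the 12 alternatives, and of the 70 other pathway genes 0 except 2 with DESeq2, of which Tab2 had an adjusted p of 0.0216. The correlation across genes of the deviations of the replicates numbered 2 was 0.0181. With so few libraries this does not settle whether the replicate numbers pair them. The count of calls was 0 with and without the replicate block, so it does not settle this either. Directions of Tgfb1, Lrrc32, Tgfbr1 and Tgfbr2 were kept in every alternative run. The groups did not overlap for these genes, so leaving out a library could hardly turn their directions. The other alternatives refit the same libraries. Smad3 turned to -0.41 with limma-voom and to -0.27 with the replicate block. With each library left out, log2 fold changes ranged from -2.62 to 0.83 for Smad2, -1.49 to 0.88 for Smad3, -0.46 to 0.31 for Smad4, -0.58 to 0.92 for Smad7, -1.06 to 0.38 for Ski, -0.31 to 0.74 for Nrros, -3.66 to 0.55 for Pcsk7, -9.29 to 10.18 for Tgfbr3, -3.16 to 0.77 for Smad5, -0.31 to 1.59 for Ep300, -0.44 to 0.083 for Crebbp and -0.82 to 0.065 for Klf10. The cause was not tested. Of the 29 genes followed, 17 kept their direction in all alternatives that gave a value. A library left out leaves 1 library in its group, assumed to vary like the others.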

Other observations

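Some pathway genes at or near 0 in the unstranded count had reads in the strand columns, which count each strand by itself. Tgif2, a relative of the corepressor Tgif1, had 0 and 1 reads in the libraries labelled Themis1-deleted, and 0 and 0 in the Vav1R63W libraries. With the strand columns summed it had 94 and 98 reads in the libraries labelled Themis1-deleted, and 20 and 165 in the Vav1R63W libraries. The opposite-strand gene 5430405H02Rik covers 56.7% of the exon bases of Tgif2 in GENCODE M21, and which of the 2 genes gave these reads cannot be told apart. Ltbp3, a latent TGF-beta binding protein gene, had 0 reads in each library and, with the strand columns summed, 53 and 1 in the libraries labelled Themis1-deleted, and 30 and 25 in the Vav1R63W libraries. The monocyte receptor gene Csf1r likewise had no read in the unstranded count and, over both strand columns, 216 and 247 in the libraries labelled Themis1-deleted, and 45 and 72 in the Vav1R63W libraries. Genes overlapping Csf1r were not looked up, so which gene gave these reads was not tested. The other monocyte and macrophage markers, Lyz2, Cd14, Adgre1, Itgam and Fcgr1, had no read in the strand columns either.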
